A study of Mus musculus with 8 samples.

Results

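The 10 genes described here are markers of pyramidal cells in fields CA2 and CA3 of the hippocampus: Map3k15, Rgs14, Amigo2 and Necab2 for CA2, Bok, Grik4, Spock1, Iyd and Rnf182 for CA3, and Prss35, listed for both fields. They are named by symbol as known markers of these fields. All 10 matched a single row each among the 37310 genes of the count table, and all 10 passed the filter on low counts, so each was tested. RNA from the hippocampus of 8 mice was sequenced, 4 heterozygous for a knockout of Nr2f1 (Nr2f1 het, called heterozygotes here) and 4 wild type (WT). Both groups had the B6.129 F1-hybrid background and an age of 3 months, carried the label male and received no treatment, and each library came from its own animal. How the knockout allele was made is not given in the sources used here. Nr2f1 encodes a nuclear receptor that patterns the developing cortex and hippocampus, and the comparison asks how the adult hippocampus differs when a copy of it is disrupted.

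The hippocampus relays information from the dentate gyrus through the mossy fibres to CA3, and from CA3 to CA1. CA3 pyramidal cells excite each other through recurrent collaterals, a circuit long studied in memory retrieval. CA2 is a narrow field between CA3 and CA1 whose pyramidal cells resist the usual forms of synaptic potentiation and are known for a role in social memory. Genes enriched in these fields are widely used to draw their borders, but most are also expressed at some level in other neurons. In RNA from a whole hippocampus, fewer cells of a field and less RNA per cell cannot be told apart.

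Libraries held between 58717305 and 90043971 gene counts. Nr2f1, the targeted gene, fell to 31.3 ± 2.16 CPM in heterozygotes while WT held 52.2 ± 2.07 CPM (SD, n = 4 each), CPM being read counts scaled to the TMM-normalised library size. That is a log2 fold change of -0.73 (edgeR adjusted p = 7.32e-05; exact two-sided permutation p = 0.0286, the smallest that 4 against 4 allows). All 8 libraries went against the label male: Xist, which females express, measured 463.2 to 601.4 CPM, and the 14 Y-linked genes of the table had 3 counts in all. Hippocampal markers were present, among them 7 of 8 CA1 and 8 of 8 dentate granule genes above the filter, while the CA1 gene Pou3f1 had 0 counts in every library. Which annotation was counted is not given, so this 0 cannot be read as absence of the transcript. Markers of the ventricle lining and its neighbours moved with genotype. The summed level of 12 choroid plexus genes was 82.7 to 2122 CPM in WT libraries against 4146 to 4677 CPM in heterozygote ones, that of 9 meningeal fibroblast genes 101.8 to 254.8 CPM against 343.1 to 405.1 CPM, and that of 6 ependymal genes 10.4 to 20.7 CPM against 29.8 to 45.3 CPM. The genotypes did not overlap in 12 of 12 choroid plexus genes and in 5 of 9 meningeal ones. Igf2 had the highest CPM of the meningeal list, 43.1 to 156.4 in WT against 229.2 to 271.0 in heterozygotes. It made up much of the summed meningeal level, so that sum largely follows this gene. None of the choroid plexus or meningeal genes passed the edgeR test at an adjusted p of 0.05, with median log2 fold changes of 1.86 and 0.80. At an unadjusted edgeR p under 0.05 were 11 and 6 of these genes, and 17.2% of all tested genes.

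The 10 markers covered a wide range of levels. Per kilobase of exon in WT, the order from the top was Necab2, Spock1, Rgs14, Bok, Grik4, Rnf182, Amigo2, Prss35, Map3k15 and Iyd. Necab2, at 36.8 ± 3.30 CPM per kilobase (SD, n = 4), stood 61.6 times above Iyd, at 0.596 ± 0.144 CPM per kilobase (SD, n = 4). Necab2 and Spock1 overlapped between WT libraries, as did Rgs14 and Bok, Grik4 and Rnf182, Rnf182 and Amigo2, and Map3k15 and Iyd. The other steps of the order did not overlap, so Prss35, at 2.00 ± 0.0875 CPM per kilobase (SD, n = 4), lay clear of both Amigo2 above it and Map3k15 below it. By their means in heterozygotes, Amigo2 moved from place 7 to place 5 and Grik4 from place 5 to place 7, and Map3k15 passed Prss35. Amigo2, Rnf182 and Grik4 overlapped between heterozygote libraries, and all values of Map3k15 lay within the range of Prss35. The order of these genes in heterozygotes was therefore not clear of the spread between libraries. Map3k15 was above Prss35 in heterozygote libraries 2, 3 and 4 and below it in library 1, while in WT it was below in every library. The summed CPM of all 10 genes, which weights long and abundant transcripts, was 621.2 to 686.2 in WT libraries and 637.0 to 674.7 in heterozygote ones, so the groups overlapped.

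**Figure D1:**
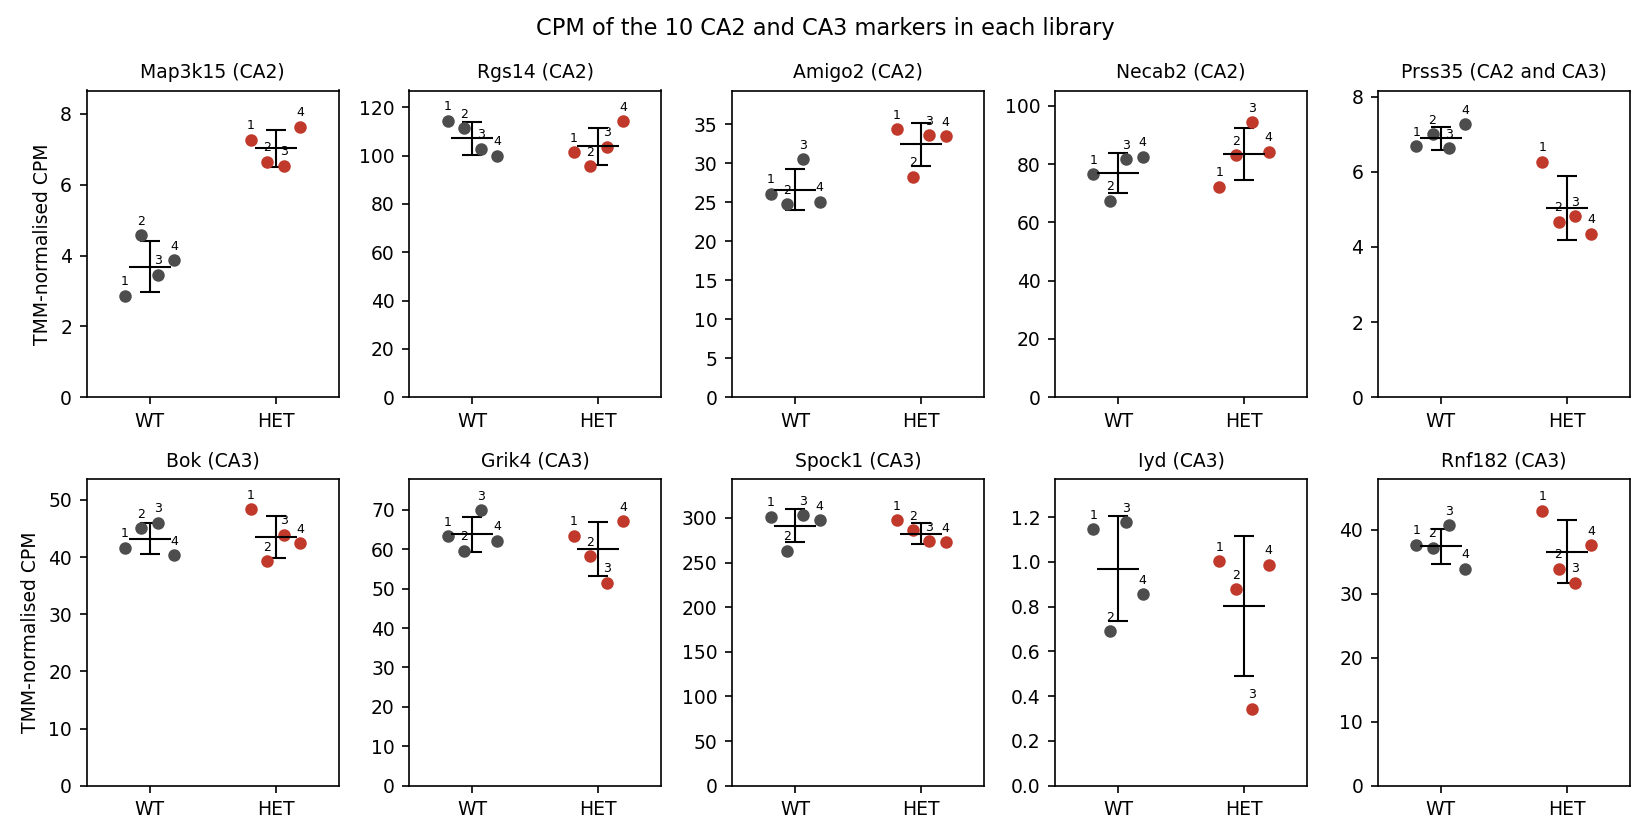
Each panel plots 1 marker, with TMM-normalised CPM on a linear axis from 0, points for the 4 WT (grey) and 4 heterozygote (HET, red) libraries numbered by replicate, and a bar for the mean with its SD. The genotypes separate for Map3k15 (WT up to 4.57 CPM, heterozygotes from 6.54 CPM) and Prss35 (heterozygotes up to 6.27 CPM, WT from 6.62 CPM), and overlap in the other 8 panels.

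Between genotypes, 1 marker rose, 1 fell and 8 did not pass the test. Map3k15 was the one that rose, by 1.89-fold, and Prss35 the one that fell, to 71.9% of its WT level (edgeR adjusted p = 0.00383 and 0.0286). These 2 of 10 stand beside 2.99% of the 17913 tested genes that passed the same threshold of 0.05, with 2.62% higher and 0.368% lower. The median log2 fold change of the 10 markers was -0.040, beside -0.0056 over all tested genes, with 4 values above 0 and 6 below. The same 2 markers were those whose genotypes did not overlap, where 10.6% of tested genes separated in this way. Over the 7 uncalled markers other than Iyd, no 95% interval of the fold reached below 0.832. Leaving out Amigo2 as well, none reached above 1.24. Of the fields, 1 of 4 CA2 markers and 0 of 5 CA3 markers passed, and a difference between the fields was not tested.

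**Figure D2:**
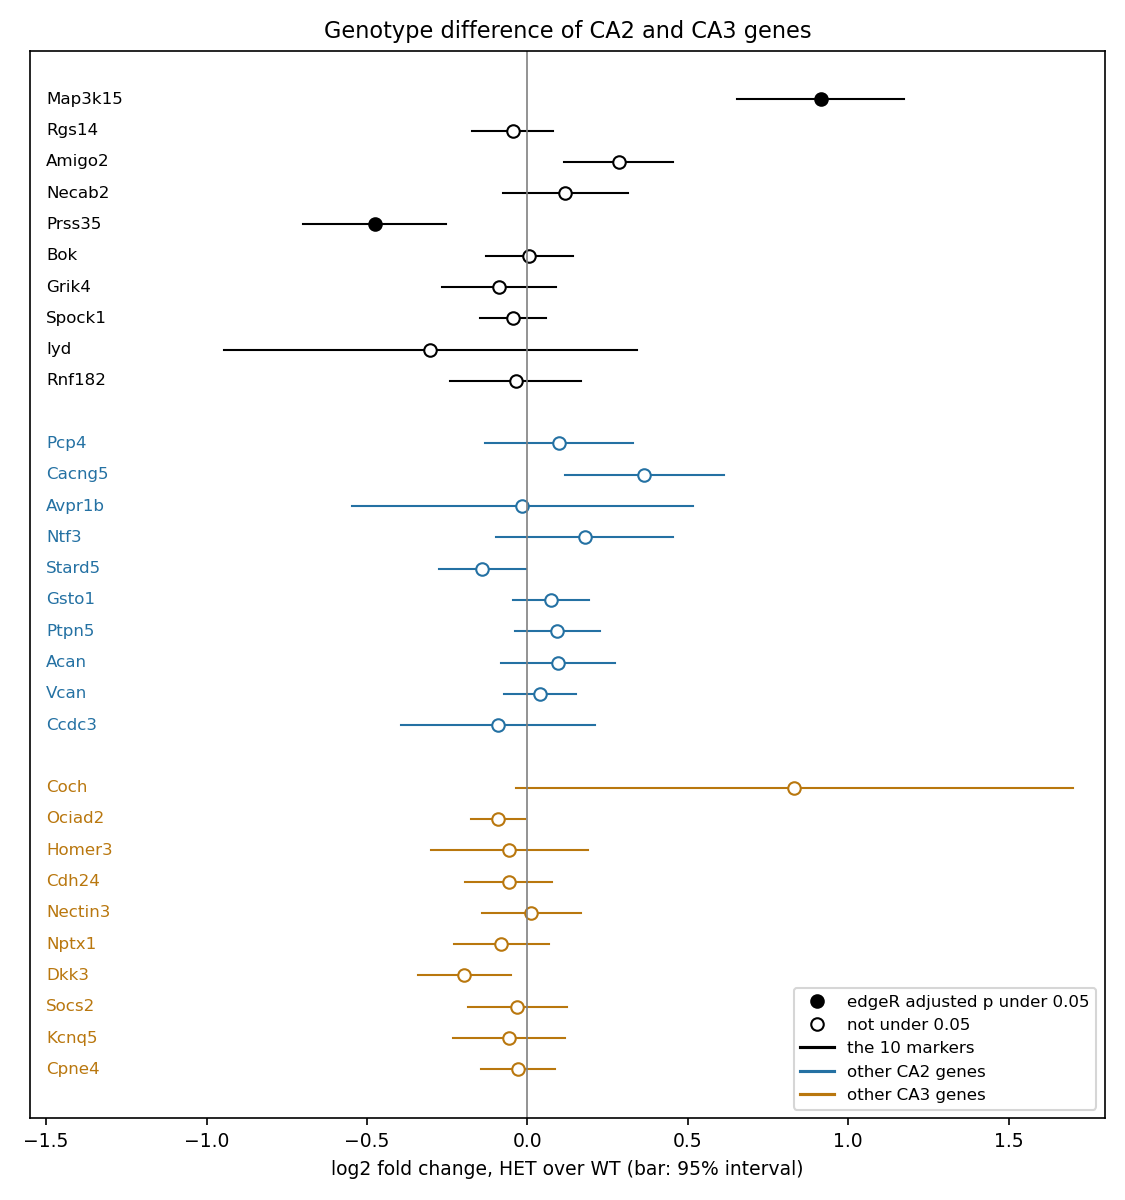
The log2 fold change of heterozygotes over WT (horizontal axis) is plotted with its 95% interval for the 10 markers (black), 10 other CA2 genes (blue) and 10 other CA3 genes (orange), filled where the edgeR adjusted p is under 0.05. Only Map3k15 at 0.91 and Prss35 at -0.48 are filled. Most other points lie nearer to 0, apart from Coch at 0.83, with a wide interval of -0.036 to 1.70. The interval of Iyd, at -0.30, is wide as well.

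Map3k15 (ENSMUSG00000031303.8, chromosome X) encodes ASK3, a stress-activated kinase that responds to changes in cell volume. It measured 2.87, 4.57, 3.46 and 3.86 in WT libraries 1, 2, 3 and 4, against 7.27, 6.65, 6.54 and 7.63 in the heterozygote libraries in that order. Every heterozygote library was above every WT library, by at least 1.96 CPM, and WT library 1 was the lowest of all. Raw counts were 215 to 619 per library. The means were 7.02 ± 0.521 CPM and 3.69 ± 0.717 CPM (SD, n = 4 each), a log2 fold change of 0.91 ± 0.120 (SE) with a 95% interval of 0.65 to 1.18. Leaving out each library in turn kept it past the threshold, with log2 fold changes from 0.82 to 1.04 (edgeR adjusted p from 0.00276 to 0.0205). In the GENCODE annotation an exon of Map3k15 overlaps one of Pdha1, a mitochondrial enzyme gene on the opposite strand. The library kit does not mark strand, so reads in the shared stretch cannot be assigned by strand. Whether the annotation behind the counts holds the same overlap is not given. Pdha1 itself was at 175.9 ± 7.65 CPM in heterozygotes and 181.2 ± 4.01 CPM in WT (SD, n = 4 each; edgeR adjusted p = 0.607).

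Markers of ependymal cells, the ciliated cells that line the ventricles, moved with Map3k15. Of all tested genes, 10.6% did not overlap between genotypes in either direction and 2.62% passed as higher. All 6 genes of the ependymal list had higher values in heterozygotes without overlap, 4 of them past the threshold, with a median log2 fold change of 1.34. Foxj1, a transcription factor gene of motile cilia, had the highest CPM of them and measured 5.72, 10.9, 5.99 and 10.1 CPM in WT libraries 1, 2, 3 and 4, against 18.0, 16.2, 14.1 and 22.1 CPM in the heterozygote libraries in that order (edgeR adjusted p = 0.0717). The ependymal score, the mean log2 CPM of the 6 genes centred on the 8 libraries, was -1.34, -0.14, -1.10 and -0.31 in WT libraries 1, 2, 3 and 4, against 0.71, 0.65, 0.47 and 1.06 in the heterozygote libraries in that order. Map3k15 ranked the libraries of each genotype exactly as this score did, in 12 of 12 pairs of libraries of a genotype. Of the other 9 markers, none matched the score in more than 7 of 12 pairs. Of the 17906 tested genes outside the ependymal list and other than Map3k15, 30 matched in all pairs, or 0.168%, and the median gene matched in 6. Of the 6 ependymal genes that make up the score, 1 matched in all pairs, and the lowest matched in 9. Map3k15 followed the choroid plexus score in 9 of 12 pairs and the striatal score in 6. The 12 pairs amount to the order of 4 libraries in each genotype, so they are not separate results. This count of pairs was chosen after the values were seen, is given as a description and was not tested.

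With the ependymal score as a covariate the log2 fold change of Map3k15 was 0.31 (edgeR adjusted p = 0.950), and with the choroid plexus score it was 0.58 (edgeR adjusted p = 0.436). Of the variance of these scores, 77.4% and 57.7% lay between the genotypes, so the parts of tissue and genotype cannot be told apart. Without WT libraries 1 and 3, the lowest in both scores, it came to 0.73 and the call remained (edgeR adjusted p = 0.0149). The 3 genes whose log2 CPM followed Map3k15 most closely over the 8 libraries were Mns1, Spef2 and Iqub, with mean absolute differences of 0.0735, 0.0894 and 0.102 on the log2 scale among 13212 genes compared. Mns1 and Spef2 are known as genes of motile cilia and sperm flagella. Their log2 fold changes were 0.82, 0.94 and 0.95, which the choice by likeness to Map3k15 fixes.

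**Figure D3:**
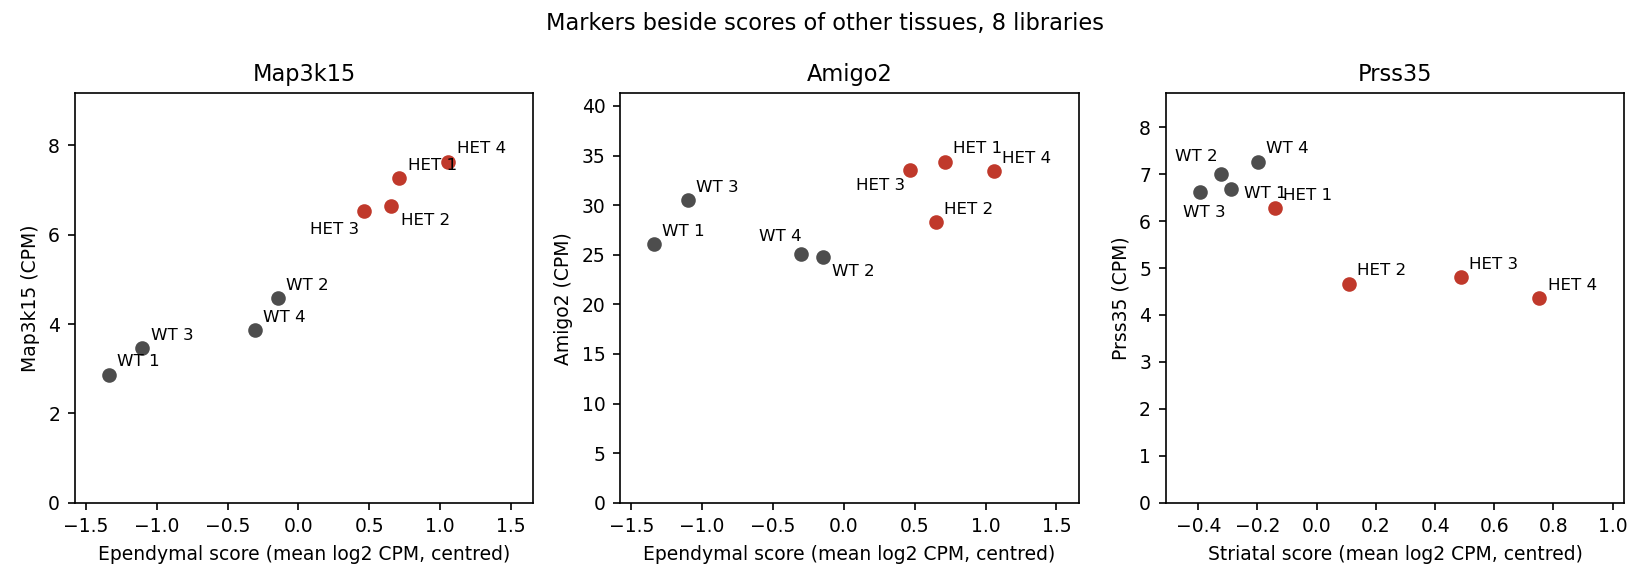
Each point is a library (WT grey, heterozygote red), with a marker's CPM on the vertical axis from 0 and a tissue score, a centred mean log2 CPM, on the horizontal axis. Map3k15 climbs from WT library 1 at 2.87 CPM to heterozygote library 4 at 7.63 CPM in the order of the ependymal score, Amigo2 is not ordered by it within a genotype, and the 3 heterozygote libraries with the highest striatal scores hold the 3 lowest values of Prss35, while among WT libraries the one with the highest score, library 4, has the highest Prss35.

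The other CA2 markers did not pass. Amigo2 (chromosome 15) encodes a leucine-rich repeat adhesion protein of neurons. It measured 26.1, 24.8, 30.5 and 25.1 in WT libraries 1, 2, 3 and 4, against 34.4, 28.3, 33.6 and 33.5 in the heterozygote libraries in that order. All but 1 of the heterozygote libraries were above all WT libraries, and heterozygote library 2 lay below WT library 3. The fold was 1.22 with a 95% interval of 1.08 to 1.37 (edgeR adjusted p = 0.0765). Amigo2 passed in 5 of 23 alternatives, among them without heterozygote library 2 (log2 fold change 0.35, edgeR adjusted p = 0.0271), without WT library 3 (0.35, edgeR adjusted p = 0.0360), with the spike-in mix as a covariate (0.29, edgeR adjusted p = 0.0242; 3.99% of all genes called) and with the DESeq2 Wald test (0.29, adjusted p = 0.0103; 6.7% of all genes called). With the ependymal score as a covariate its log2 fold change was 0.45 ± 0.161 (SE), without a call (edgeR adjusted p = 0.950), against 0.28 ± 0.0773 without the score. Of the variance of that score 77.4% lay between the genotypes, so tissue and genotype cannot be told apart here. Amigo2 followed the score in 4 of 12 pairs of libraries. In the GENCODE annotation Amigo2 overlaps exons of Pced1b on the opposite strand, which was at 4.99 ± 0.424 CPM in heterozygotes and 4.80 ± 0.498 CPM in WT (SD, n = 4 each).

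Rgs14, a signalling scaffold known for holding back synaptic potentiation in CA2, measured 114.5, 111.4, 102.9 and 99.9 in WT libraries 1, 2, 3 and 4, against 101.5, 95.7, 103.7 and 114.3 in the heterozygote libraries in that order. The genotypes covered nearly the same range. The fold was 0.969 with a 95% interval of 0.888 to 1.06 (edgeR adjusted p = 0.743). Necab2, which encodes a neuronal calcium-binding protein, measured 76.6, 67.4, 81.7 and 82.5 in WT libraries 1, 2, 3 and 4, against 72.3, 83.0, 94.4 and 84.3 in the heterozygote libraries in that order. Heterozygote library 3 was the highest, and heterozygote library 1 lay within the WT range. The fold was 1.09 with a 95% interval of 0.948 to 1.24 (edgeR adjusted p = 0.543). Necab2 is also known from the striatum. Of 10 striatal genes, 6 had no overlap between genotypes, all higher in heterozygotes, where 10.6% of tested genes did not overlap in either direction. The striatal list had 1 gene past the threshold and a median log2 fold change of 0.74. Of the 12 pairs of libraries of a genotype, Necab2 followed the striatal score in 9 and Rgs14 in 8. With that score as a covariate the log2 fold change of Necab2 turned from 0.12 to -0.057 ± 0.121 (SE; edgeR adjusted p = 0.956). Spock1 (-0.044 to 0.036) and Rnf182 (-0.037 to 0.118) changed sign with it too, while the other markers kept theirs. Of the variance of this score 59.6% lay between the genotypes, so tissue and genotype cannot be told apart.

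Prss35 (ENSMUSG00000033491.6, chromosome 9), which encodes a secreted relative of trypsin-like serine proteases, was the marker that fell. It measured 6.68, 7.00, 6.62 and 7.26 in WT libraries 1, 2, 3 and 4, against 6.27, 4.67, 4.81 and 4.35 in the heterozygote libraries in that order. WT libraries were close together, and heterozygote library 1 lay only 0.347 CPM below the lowest of them. Raw counts were 353 to 653 per library. The means were 5.03 ± 0.851 CPM and 6.89 ± 0.301 CPM (SD, n = 4 each), a log2 fold change of -0.48 ± 0.102 (SE) with a 95% interval of -0.70 to -0.25. The call was close to the threshold. It held without heterozygote library 1 (log2 fold change -0.58, edgeR adjusted p = 0.0140) and was lost without any other single library, where edgeR adjusted p ran up to 0.0803 and the log2 fold change stayed between -0.50 and -0.42.

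Striatal scores of WT libraries 1, 2, 3 and 4 were -0.29, -0.32, -0.40 and -0.20, those of the heterozygote libraries -0.14, 0.11, 0.49 and 0.75 in that order. Heterozygote library 1, the highest of its genotype in Prss35, was the lowest in that score. Within the genotypes the orders were opposite: Prss35 followed the striatal score in 5 of 6 pairs of WT libraries and in 1 of 6 pairs of heterozygote libraries. With the score as a covariate its log2 fold change was -0.22 (edgeR adjusted p = 0.804). Of the variance of the striatal score 59.6% lay between the genotypes, so the 2 cannot be told apart. With the ependymal score the log2 fold change of Prss35 came to -0.55 ± 0.209 (SE; edgeR adjusted p = 0.950), against -0.48 ± 0.102 without it. That score had 77.4% of its variance between the genotypes. The genes that followed Prss35 most closely over the 8 libraries were Pex11g, Nhlh1 and Calca, with mean absolute differences of 0.102, 0.102 and 0.120 on the log2 scale. Their log2 fold changes were -0.35, -0.50 and -0.57, which the choice by likeness to Prss35 fixes.

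Promoter windows, 250 bases before to 50 after a start site, were found for 8 of the 10 markers in the RefSeq table of GRCm38.p6. Map3k15, the marker that rose, and Rgs14 had no window there, so their promoters were not searched. Those of Prss35, the marker that fell, and of Amigo2, the uncalled marker whose 95% interval lay above a fold of 1, are shown because Nr2f1 binds DNA and its own level differs between these mice. Each is written 5′ to 3′ on the gene's strand, with CG dinucleotides in capitals. The Prss35 window is chr9:86743383-86743682 on the plus strand and the Amigo2 window chr15:97247238-97247537 on the minus strand.
Prss35: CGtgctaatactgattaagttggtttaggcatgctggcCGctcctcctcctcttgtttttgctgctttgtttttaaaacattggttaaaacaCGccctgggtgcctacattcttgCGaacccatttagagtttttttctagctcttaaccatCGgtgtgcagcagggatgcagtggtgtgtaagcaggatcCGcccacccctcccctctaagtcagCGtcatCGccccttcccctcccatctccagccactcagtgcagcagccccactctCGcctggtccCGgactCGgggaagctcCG
Amigo2: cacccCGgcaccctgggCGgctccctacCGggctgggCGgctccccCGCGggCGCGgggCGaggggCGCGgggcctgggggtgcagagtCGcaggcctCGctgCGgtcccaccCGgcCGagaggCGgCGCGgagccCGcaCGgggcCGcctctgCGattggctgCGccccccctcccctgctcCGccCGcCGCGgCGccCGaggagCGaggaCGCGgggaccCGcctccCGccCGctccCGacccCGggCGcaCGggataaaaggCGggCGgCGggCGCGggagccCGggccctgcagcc
The Prss35 window holds 12 CG dinucleotides with a GC content of 54.0%, and the Amigo2 window 46 with 83.3%. The median of the 32851 windows in the table is 7 CG dinucleotides, with quartiles of 3 and 20. The letters AGGTCA, the core site bound by many nuclear receptors, were searched on both strands. None of the 8 windows holds them, where 16.3% of all windows do. The direct repeat DR1, made of 2 such sites, is in 0.0396% of all windows. It cannot occur in a window without the single site, so its absence from the 8 adds nothing. No match says only that these letters are not in these windows.

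None of the 5 CA3 markers passed. Grik4, the gene of the high-affinity kainate receptor subunit GluK4 found at mossy fibre synapses, measured 63.4, 59.6, 69.8 and 62.1 in WT libraries 1, 2, 3 and 4, against 63.4, 58.2, 51.5 and 67.1 in the heterozygote libraries in that order. Heterozygote library 3 was the lowest, and the other heterozygote libraries lay within or near the WT range. The fold was 0.941 with a 95% interval of 0.832 to 1.06 (edgeR adjusted p = 0.636). Bok, a member of the Bcl-2 family, measured 41.7, 45.0, 46.0 and 40.3 in WT libraries 1, 2, 3 and 4, against 48.3, 39.3, 43.9 and 42.5 in the heterozygote libraries in that order. The heterozygote libraries spanned the whole WT range. The fold was 1.00 with a 95% interval of 0.914 to 1.10 (edgeR adjusted p = 0.975).

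Spock1, which encodes the proteoglycan testican-1, was the marker with the most reads, 17497 to 26732 per library. It measured 301.2, 263.5, 303.4 and 297.4 in WT libraries 1, 2, 3 and 4, against 297.3, 286.5, 273.6 and 272.8 in the heterozygote libraries in that order. WT library 2 was below all other libraries, and the genotypes overlapped. The fold was 0.970 with a 95% interval of 0.903 to 1.04, the narrowest of the 10 on the log2 scale (edgeR adjusted p = 0.687). Rnf182, a brain-enriched ubiquitin ligase gene, measured 37.6, 37.2, 40.7 and 33.9 in WT libraries 1, 2, 3 and 4, against 43.0, 33.9, 31.7 and 37.6 in the heterozygote libraries in that order. Heterozygotes held both the highest and the lowest value. The fold was 0.975 with a 95% interval of 0.846 to 1.12 (edgeR adjusted p = 0.886).

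Iyd, which encodes the enzyme that recovers iodide from iodotyrosines, had 31 to 94 counts per library and the widest interval. It measured 1.15, 0.691, 1.18 and 0.857 in WT libraries 1, 2, 3 and 4, against 1.00, 0.878, 0.343 and 0.987 in the heterozygote libraries in that order. Heterozygote library 3 was lower than the rest, and the other heterozygote libraries lay within the WT range. The fold was 0.811 with a 95% interval of 0.519 to 1.27 (edgeR adjusted p = 0.656). The value rests on heterozygote library 3: without it the log2 fold change was -0.0084 in place of -0.30 (edgeR adjusted p = 0.995). Among odd-numbered libraries, which include that library, it was -0.92, and among even-numbered ones 0.27 (edgeR adjusted p = 0.356 and 0.889). The coefficient of variation of Iyd was 24.2% in WT and 38.8% in heterozygotes.

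Rgs14, Spock1 and Rnf182 lie on chromosome 13, which also carries Nr2f1. Their log2 fold changes were -0.046, -0.044 and -0.037, with standard errors of 0.0578, 0.0472 and 0.0911. In none of the 3 did the difference exceed its standard error.

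Of 10 other genes known from CA2, 0 passed and 7 had a log2 fold change above 0, with a median of 0.083 (2 at an unadjusted edgeR p under 0.05, as were 17.2% of all tested genes). The lowest p belonged to Cacng5, an auxiliary AMPA receptor subunit gene. It measured 17.4, 18.1, 14.4 and 14.0 CPM in WT libraries 1, 2, 3 and 4, against 17.8, 18.6, 22.3 and 23.2 CPM in the heterozygote libraries in that order. Heterozygote libraries 3 and 4 were the highest, and the genotypes overlapped. The fold was 1.29 (edgeR adjusted p = 0.118). Stard5, a lipid transfer gene, had a fold of 0.908 (edgeR adjusted p = 0.274). Pcp4, a calmodulin-binding gene often used to outline CA2, is named as a common reference for this field after its values were seen, with 11.8 ± 1.30 CPM in heterozygotes and 11.1 ± 1.56 CPM in WT (SD, n = 4 each; edgeR adjusted p = 0.688).

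Of 10 other genes known from CA3, 0 passed and 2 had a log2 fold change above 0, with a median of -0.057 (2 at an unadjusted edgeR p under 0.05). Dkk3, a secreted Dickkopf family gene, measured 449.8, 494.7, 476.1 and 459.3 in WT libraries 1, 2, 3 and 4, against 423.7, 426.7, 350.0 and 440.1 in the heterozygote libraries in that order. Its genotypes did not overlap, with a fold of 0.873, and it did not pass (edgeR adjusted p = 0.144). Ociad2 had a fold of 0.939 (edgeR adjusted p = 0.255). For comparison, 2 of 7 CA1 genes and 1 of 8 dentate granule genes passed as lower, with medians of -0.20 and -0.050, and 0 of 5 genes of all pyramidal neurons and 0 of 6 interneuron genes passed, with medians of -0.13 and 0.023. The summed CA1 level was 991.9 to 1025 CPM in WT libraries and 829.0 to 923.6 CPM in heterozygote ones. In the thalamic list 1 of 10 genes passed as higher, with a median of 0.17. Differences between these lists were not tested.

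Libraries were given the ERCC spike-in as 1 of 2 mixes, and the ratio of ERCC-00130 to ERCC-00002, between 1.20 and 1.28 in odd-numbered and between 0.165 and 0.186 in even-numbered libraries, placed each mix with 2 libraries of either genotype. Among odd-numbered libraries Map3k15 had a log2 fold change of 1.12 (edgeR adjusted p = 0.00553) and among even-numbered ones 0.76 (edgeR adjusted p = 0.0644). For Prss35 these were -0.28 and -0.66 (edgeR adjusted p = 0.426 and 0.0549), and for Amigo2 0.27 and 0.31 (edgeR adjusted p = 0.159 and 0.246). Direction was the same within both mixes for these 3 genes, while with 2 libraries a genotype only Map3k15 among odd-numbered libraries passed. Of all genes tested in these sets, 3.09% and 0.429% passed. With the mix as a covariate over all 8 libraries, Map3k15, Prss35 and Amigo2 passed, at 0.92, -0.48 and 0.29 (edgeR adjusted p = 0.00134, 0.0259 and 0.0242). Over the 23 other processing choices and sample sets tried, Map3k15 passed in 19, Prss35 in 8 and Amigo2 in 5. The remaining 7 markers passed in none (22 choices for Iyd, which the filter of 1 CPM in 4 libraries removed).

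**Figure D4:**
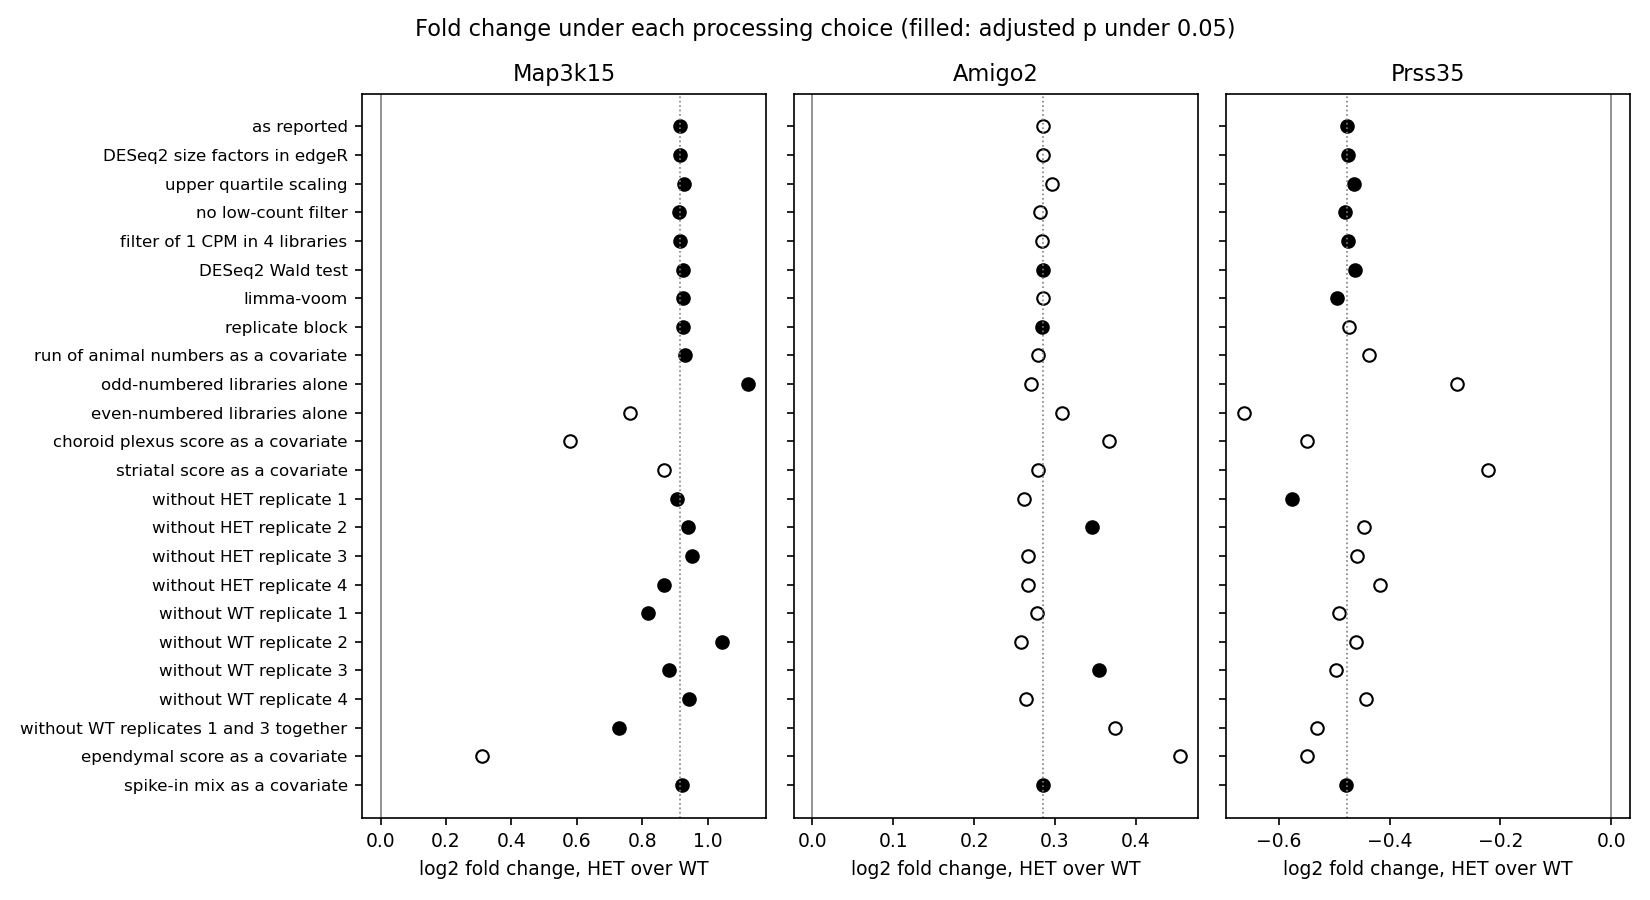
Log2 fold changes of heterozygotes over WT (horizontal axes) are plotted for Map3k15, Amigo2 and Prss35 as reported (dotted line) and under each of 23 other processing choices or sample sets, filled where the adjusted p is under 0.05. Every point of a gene lies on the same side of 0; Map3k15 runs from 0.31 to 1.12, Amigo2 from 0.26 to 0.45 and Prss35 from -0.66 to -0.22.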

How the data were processed

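The authors deposited a single table of raw counts, with a row for each Ensembl gene and a column for each library. The submitters' processing notes name STAR 2.4.2a, HTSeq, FastQC and DESeq2, and as builds mm9 and NCBIM37. What each tool did, which annotation was counted and whether strand was used is not given in the sources used here. Per the labels' protocols, cDNA was made from total RNA with a NuGEN kit using poly(A) and random priming. Library sizes and tests exclude the 92 ERCC rows. Symbols, chromosomes and exon lengths came from GENCODE M21 on GRCm38, which named 32620 of 37310 genes, and no gene coordinates of that build are used for the counts.

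Genotypes were compared over all 8 libraries by quasi-likelihood F tests (edgeR 4.0.16, robust fit, R 4.3.3), two-sided, after TMM scaling and filterByExpr (minimum count 10, total 15), with Benjamini-Hochberg adjustment over 17913 genes. Standard errors are the log2 fold change over the root of F. The step was tested on simulated counts. Every pair of libraries of a genotype differed by more than sampling noise (chi-square per degree of freedom 7.42 to 25.0).

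The markers, lists and alternatives were chosen with earlier results of these data known. The 10 markers and Nr2f1 are always named; of the other CA2 and CA3 genes, up to 4 past the threshold are named, otherwise the 2 with the lowest p. For the 2 markers with the lowest p, the 3 genes of at least 1 CPM with the most similar centred log2 CPM are named. Cell type lists were CA1, dentate granule, pyramidal neuron, interneuron, choroid plexus, ependymal, meningeal fibroblast, striatal and thalamic. Alternatives were other scalings, filters and tools (DESeq2 1.42.0, limma 3.58.1), each library left out, the replicate block, the run of animal numbers, each spike-in mix, and choroid plexus or striatal scores. The ependymal score, the mix as a covariate and leaving out WT libraries 1 and 3 together were added after seeing the data.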

Additional observations from a re-analysis of the deposited data

Results flagged for a closer look

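In 2 of 20 groups of 4 libraries, 1 library lay far from the other 3; chance gives about 5% of groups. Amigo2 was at 28.3 CPM in heterozygote library 2, where the other heterozygote libraries ran from 33.5 to 34.4 CPM. Spock1 was at 263.5 CPM in WT library 2, where the other WT libraries ran from 297.4 to 303.4 CPM. Without that library the log2 fold change of Spock1 was -0.083 (edgeR adjusted p = 0.301).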

How the results depend on the processing

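Upper quartile scaling, DESeq2 size factors, limma-voom and both other filters left Map3k15 and Prss35 as the 2 markers that passed. The DESeq2 Wald test called 1200 genes and added Amigo2, as did the spike-in mix as a covariate, with 714 genes. Adding the run of animal numbers to the model, 231 genes and 1 marker passed (Map3k15), among odd-numbered libraries 1 marker (Map3k15), and among even-numbered ones 78 genes and 0 markers. No gene that passed was a marker with the choroid plexus (1 gene, 0 markers), striatal (0 and 0) or ependymal score (0 and 0) as a covariate, where the edgeR p without adjustment was under 0.05 for 1201, 1332 and 893 genes. Nr2f1 lost its call with the striatal (log2 fold change -0.66, edgeR adjusted p = 0.119) and ependymal scores (-0.55, edgeR adjusted p = 0.469). Leaving out each library in turn gave 171 to 767 genes, 1 to 2 markers and log2 fold changes of Nr2f1 from -0.77 to -0.69; the low of 171 was without WT library 3. Without WT libraries 1 and 3 together, 170 genes and 1 marker (Map3k15) passed. The cause of these changes was not tested.

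The replicate numbers did not pair the libraries: deviations of same-numbered libraries correlated at 0.027, -0.045, -0.093 and -0.078 across genes, and none of the 4 WT libraries correlated best with its own number. Each correlated best with a heterozygote library of the same spike-in mix. With the replicate block 406 genes and 2 markers passed, Map3k15 and Amigo2 (log2 fold change 0.28, edgeR adjusted p = 0.0427), while Prss35 had an edgeR adjusted p of 0.0685. The 7 markers besides Map3k15, Prss35 and Amigo2 each changed sign under at least 1 alternative, with no adjusted p under 0.244. A count of 0 would allow up to 3 counts, 0.0332 to 0.0510 CPM by library, for counting error only.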
